A study of Zea mays with 24 samples.

Results

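Pathogenesis-related protein 1 (PR-1, probe MZ00004486) and a putative chitinase (probe MZ00027910) were described in maize primary roots grown in the cold or under control temperatures. They are 2 of the 43393 genes on the array, each printed as 1 spot. They were chosen by name with earlier results of these data known, and the study itself had listed both products among the genes responding to cold on these arrays. Their cold response is therefore a description, given without a test, and tests were kept for differences between varieties.

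PR-1 proteins are small, secreted, cysteine-rich proteins that accumulate after pathogen attack, and their transcript is the usual marker of the salicylic acid branch of plant defence. Chitinases cut chitin, the main polymer of fungal cell walls, and form further families of pathogenesis-related proteins. In winter cereals such as rye, some chitinases that accumulate in the apoplast during cold hardening also bind ice.

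The roots came from 4 commercial maize varieties (*Zea mays*), of which Picker and PR39B29 grew better in the cold and Fergus and Codisco grew less well. All seedlings were kept in dark growth chambers. As the labels give it, the control regime had a warm period at 18 °C (16 h) and a cool period at 12 °C (6 h), and the cold regime had its warm period at 12 °C (16 h) and its cool period at 6 °C (8 h). The methods instead give 8 h for the cool period of the control. The labels give the roots an age of 8 days post-germination, whereas the methods place the array samples at day 1, and the files do not settle which is right. Each variety and regime had 3 replicates, which the study describes as independently grown, so that p-values measure the spread between 3 root RNA samples of each kind. In RNA from whole roots, fewer cells of a type and less transcript per cell cannot be told apart.

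Each of the 24 arrays carried 2 root RNAs, and the value of a spot is the log2 ratio of its 2 channels, so that −1 stands for a level 2-fold lower. The arrays formed 3 loops, 1 for each replicate number, of 8 arrays each. In a loop, 4 direct arrays compared cold with control roots of the same variety, and 4 linking arrays compared cold roots of one variety with control roots of the next, in the order Fergus, Picker, PR39B29, Codisco and back to Fergus. A direct ratio therefore holds the cold response of 1 variety, and a linking ratio holds a cold response together with a difference between varieties.

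The direction of the ratios is likely but not settled. Ratios were read in the order of the sample titles, so that the sign of direct arrays was changed and that of linking arrays was kept, and all values below are cold over control. The basis is that the deposited values of direct and linking arrays ran opposite to each other within a loop, with a rank correlation below 0 in 39 of 48 pairs (median −0.26). This shows that one kind of array has to be turned, and the order of the titles was taken to decide which. If the dye labels are read literally, no sign is changed and each direct value of PR-1 and chitinase turns, while the linking values stay. That reading turns neither kind of array, so it leaves them running opposite to each other. Turning the linking arrays in place of the direct ones would change the sign of every ratio and level below, and was not run. Under the reading used, cold roots were in opposite channels on direct and linking arrays, so a dye effect of a probe enters them with opposite signs, and it is part of each direct ratio taken alone.

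On the whole, arrays gave a value for 18268 to 43108 genes (median 23252), and the SD of the ratios on an array ranged from 0.544 to 2.60. Within replicate 2, the direct PR39B29 array and the array that set Picker cold roots against PR39B29 control roots had nearly the same deposited values, with a correlation of 0.987 over 22672 genes. In cold over control their values are mirror images, for PR-1 −2.27 and 2.38 and for chitinase −1.70 and 1.79. Values without the pair are given beside the results that use it. The value table holds ratios without levels, so the labelled tissue could not be checked by the level of its markers.

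The only sequences of these transcripts in the study's files are the primers with which it measured PR-1 by quantitative PCR, shown because they identify the PR-1 transcript meant. Both are 20 bases long with 50% G and C, printed 5′ to 3′.
PR-1 forward primer: gagcaacgtgattggacaga
PR-1 reverse primer: gcatatgcggggagaacata
The probes could not be placed on a reference gene. In the RefSeq gene table of maize, 1 gene had the synonym PR-1 and 4 had the synonym chitinase, and none of them could be linked to these probes. Of the 103 array probes whose name matched a gene of that table, 0 had a defence-related word in the symbol or synonyms of the gene.

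PR-1 was lower in cold than in control roots on 11 of the 12 direct arrays, with a mean log2 ratio of −3.45 ± 4.00 (SD, n = 12) and a median of −2.88, or a mean of −3.55 without the near-identical array. Of the 12708 genes with a value on all direct arrays, 6.80% were lower on 11 or 12 of them. The probes were chosen on this contrast, so nothing is read from that share. The exception was replicate 1 of PR39B29.

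In Fergus, PR-1 had log2 ratios of −3.04, −5.64 and −3.80 in replicates 1, 2 and 3, a mean of −4.16 ± 1.33 (SD, n = 3). Picker gave −0.85, −5.87 and −14.30, with a mean of −7.01 ± 6.79, which was −3.36 without replicate 3. Fergus was thus low on each of its arrays, whereas the lowest mean, that of Picker, rested on 1 array. That array gave a value for 18940 genes, the second lowest number of the 24, and 4 of them lay beyond a log2 ratio of 10 in either direction. The authors' background correction sets a channel at or below 0 to a floor, and whether a channel of PR-1 was at that floor could not be seen from the ratios, so the size of a ratio of −14.30 is uncertain.

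In Codisco, PR-1 had ratios of −0.47, −3.12 and −2.72 (mean −2.10 ± 1.43, SD, n = 3). In PR39B29 the values were 0.81, −2.27 and −0.08 (mean −0.51 ± 1.58). These were the only direct values of PR-1 that lay on both sides of 0, and the mean was brought below 0 by replicate 2, the array with a near-identical partner. Without it the mean of PR39B29 was 0.37. All 3 PR39B29 values lay above all 3 Fergus values, and the Picker and Codisco values overlapped both.

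**Figure D1:**
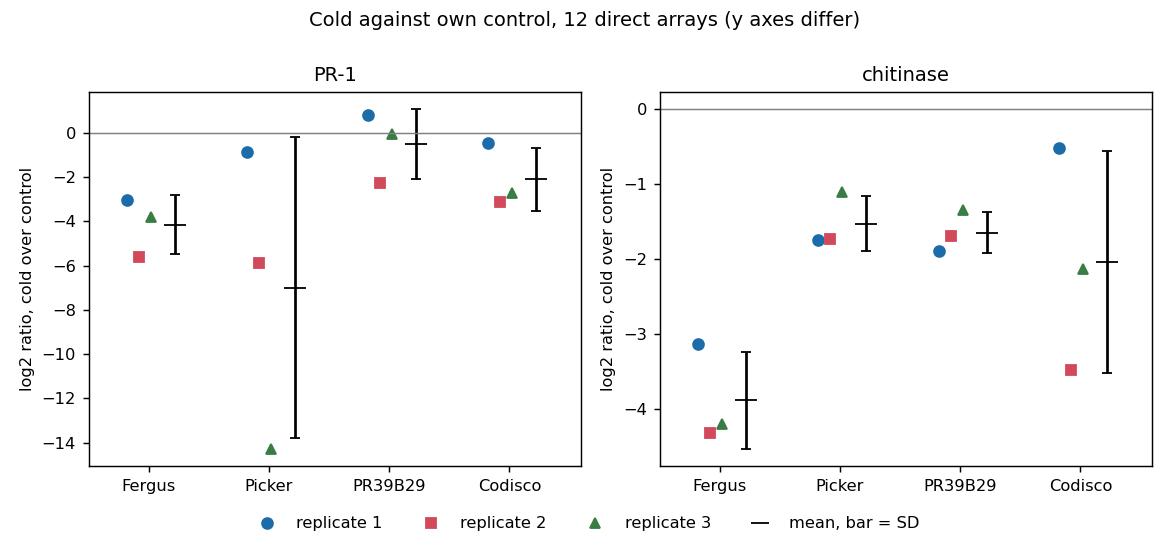
Log2 ratio of cold over control for PR-1 (left) and chitinase (right) on the 12 direct arrays, by variety (x axis); points are single arrays by replicate, and the dash and bar give the mean and SD of 3. PR-1 was below 0 on 11 arrays and reached −14.30 on 1 Picker array, and chitinase was below 0 on all 12, lowest in Fergus.

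Chitinase was lower in cold roots on 12 of 12 direct arrays, with a mean of −2.27 ± 1.22 (SD, n = 12), a median of −1.82 and a range of −4.31 to −0.52. Without the near-identical array the mean was −2.33. Over all 12708 genes, 2.68% were lower on all 12, and again nothing is read from it, since the probe was chosen on this contrast. Its spread was less than that of PR-1, whose SD was at the 99.9th percentile of these genes, against the 91.4th for chitinase.

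Fergus had the lowest chitinase ratios, −3.13, −4.31 and −4.20 (mean −3.88 ± 0.65, SD, n = 3). Codisco ranged most, with −0.52, −3.47 and −2.13 (mean −2.04 ± 1.48), and its mean was −1.32 without replicate 2. That replicate of Codisco was the only value of another variety within the range of Fergus.

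In Picker, chitinase had ratios of −1.75, −1.73 and −1.10 (mean −1.53 ± 0.37, SD, n = 3). In PR39B29 they were −1.89, −1.70 and −1.35 (mean −1.65 ± 0.28). The values of these varieties overlapped and had the smallest SDs among the direct comparisons of either transcript. In PR39B29, where PR-1 lay on both sides of 0, chitinase was thus below 0 in each replicate.

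The place of the probes among all genes only describes the contrast on which they were chosen. The mean of PR-1 was the 4th lowest of 12708 and that of chitinase the 33rd lowest, while the median over all gene means was −0.01. With the dye labels read literally they were the 4th and the 33rd highest, and without the near-identical arrays the 4th and the 44th lowest of 13161. By the median over the 12 arrays, PR-1 was the 8th lowest and chitinase the 92nd lowest. On single direct arrays, PR-1 was among the lowest 1% of genes on 6 and chitinase on 5. PR-1 ranged up to percentile 91.7 of an array, and chitinase only up to percentile 17.0.

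**Figure D2:**
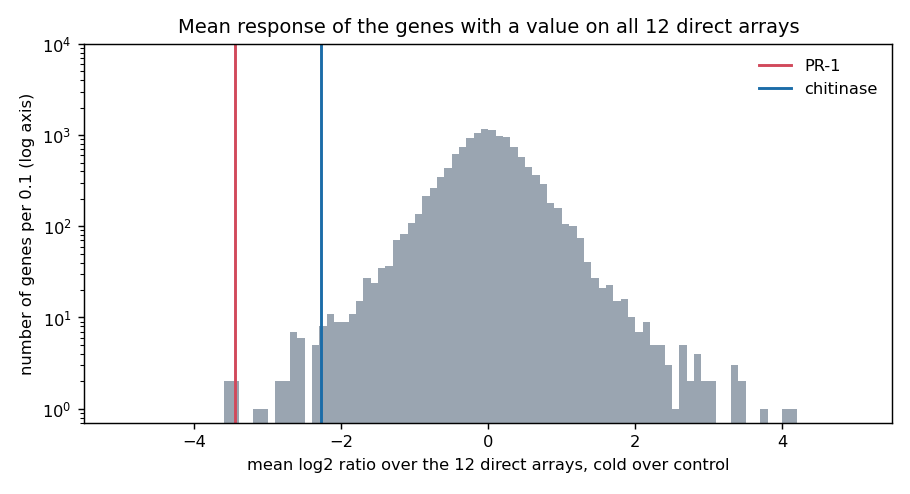
Number of genes (log axis) by their mean log2 ratio of cold over control, for the 12708 genes with a value on all 12 direct arrays, with vertical lines at PR-1 and chitinase. PR-1, at −3.45, is the 4th lowest of these genes and chitinase, at −2.27, the 33rd lowest on the contrast by which they were chosen, and both would be as far from the other end with the dye labels read literally.

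Whether the varieties differed in their cold response was tested by limma's moderated F test across all genes. The study called its lists variety by variety on these arrays, in Picker and PR39B29 for PR-1 and in Picker for chitinase, so this comparison is not independent of the choice either. Of 2546 genes tested, 0 passed an adjusted p of 0.05 (0% called), 252 had an unadjusted p under 0.05, and the smallest adjusted p was 0.476. Chitinase had F = 4.30 (unadjusted p = 0.0249, adjusted p = 0.476, limma). PR-1 had F = 2.87 (unadjusted p = 0.0757, adjusted p = 0.48, limma). The lower chitinase ratios of Fergus and the higher PR-1 ratios of PR39B29 therefore did not pass the threshold once all genes were counted. With 3 arrays for each variety, this does not show that the varieties responded alike. Without the near-identical pair the adjusted p was 0.837 for both (limma).

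On the linking arrays, PR-1 was below 0 on 6 of 10 and above on 4, with a mean of −2.52 ± 5.36 (SD, n = 10) and a median of −0.45. The mean was −3.06 without the array of the near-identical pair, and −1.32 without replicate 3 of PR39B29 cold roots against Codisco control roots. Chitinase was below 0 on 7 of 11 and above on 4 (mean −1.22 ± 1.79, SD, n = 11, median −1.57), and its mean was −1.52 without that array. Each transcript thus had values on both sides of 0 here.

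Fergus cold roots against Picker control roots gave PR-1 ratios of 0.68, −7.28 and −4.54 (mean −3.71 ± 4.04, SD, n = 3), or −1.93 without replicate 2. Chitinase had −1.27, −3.97 and −1.57 there (mean −2.27 ± 1.48), or −1.42 without replicate 2. For chitinase this was the only linking comparison with all replicates below 0.

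Picker cold roots against PR39B29 control roots gave PR-1 ratios of −0.65, 2.38 and −0.26 (mean 0.49 ± 1.65, SD, n = 3). Chitinase had −2.24, 1.79 and −2.08 (mean −0.84 ± 2.28). In each case the single positive value was replicate 2, the array with a near-identical partner, and without it the means were −0.45 for PR-1 and −2.16 for chitinase.

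PR39B29 cold roots against Codisco control roots gave PR-1 ratios of 0.54, 4.15 and −13.29 (mean −2.87 ± 9.20, SD, n = 3). The negative mean rested on replicate 3, without which it was 2.34, and whether a channel was at the floor could not be seen here either. Chitinase had −2.32 and 0.34 in replicates 1 and 2 (mean −0.99) and no value in replicate 3. Neither transcript had a direction shared by its replicates in this comparison.

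Codisco cold roots against Fergus control roots gave a single PR-1 ratio, −6.90 in replicate 1, since the other replicates had no value. Chitinase had −3.11, 0.12 and 0.90 (mean −0.70 ± 2.12, SD, n = 3), and its mean was 0.51 without replicate 1. The lowest chitinase value came from the array that gave the only PR-1 value.

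**Figure D3:**
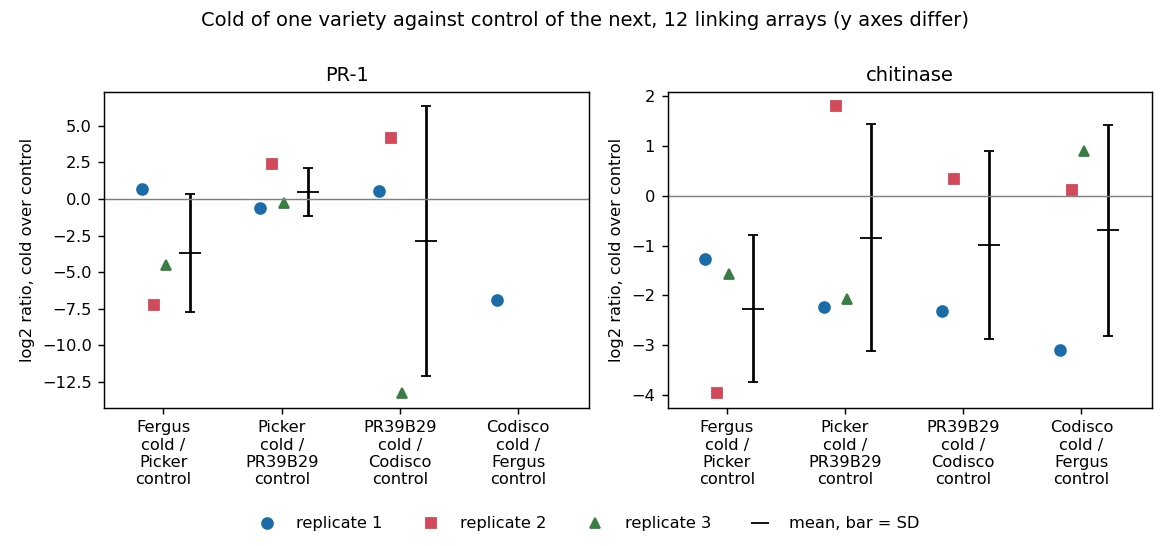
Log2 ratio of cold roots of one variety over control roots of the next for PR-1 (left) and chitinase (right), by pair of varieties (x axis); points are single arrays by replicate, and the dash and bar give the mean and SD where at least 2 arrays had a value. PR-1 was below 0 on 6 of 10 arrays and chitinase on 7 of 11.

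Around a complete loop, the mean of the 4 linking ratios and the mean of the 4 direct ratios estimate the same quantity, the mean cold response of the 4 varieties. For PR-1 this could be set side by side in replicate 1 only, where the direct arrays gave −0.89 and the linking arrays −1.58. For chitinase, replicate 1 gave −1.82 and −2.24, and replicate 2 gave −2.80 and −0.43. The gap of 2.37 in replicate 2, whose loop holds the near-identical pair, stood against a median gap of 0.407 over 14615 genes in that loop. Over all genes, the direct and linking means of a loop had rank correlations of 0.642, 0.358 and 0.816 in replicates 1, 2 and 3, lowest in replicate 2.

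The ratios of a loop were next solved for the level of each of its 8 RNAs, centred on 0 over the loop, which uses direct and linking arrays together. Levels of a loop share arrays and are not independent of each other, and they rest on the direction read from the titles. For PR-1 the mean of the 4 control levels was 0.62, 2.11 and 2.61 in replicates 1, 2 and 3, with the cold mean as far below 0. For chitinase the control mean was 1.01, 0.81 and 1.10. Controls were thus above cold roots on average in each loop, which restates the cold response on which the probes were chosen. Where a loop lacked a linking array, this gap is the mean of its direct ratios alone. Only in replicate 1 of chitinase did all 4 controls lie above all 4 cold RNAs.

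PR-1 was highest in control roots of Fergus, with levels of 4.48, 6.61 and 5.78 (mean 5.62 ± 1.07, SD, n = 3), followed by control roots of Picker at 4.94 ± 4.31. Cold roots of Fergus came next with 1.09, 0.98 and 1.97 (mean 1.35 ± 0.54). The control and cold levels of Fergus did not overlap. In replicates 2 and 3, PR-1 had no value for Codisco cold against Fergus control roots. There the Fergus gap is the direct Fergus ratio alone, part of the contrast on which the probe was chosen. PR-1 in cold Fergus roots stood above the mean of control roots of Codisco (−0.66 ± 6.07) and PR39B29 (−2.79 ± 4.13). In loops 1 and 3 alone, without the loop of the near-identical pair, control Codisco at 2.22 stood above cold Fergus at 1.53.

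The lower end of the PR-1 order held cold Picker at −2.18 ± 5.16, cold Codisco at −2.88 ± 6.29 and cold PR39B29 at −3.41 ± 3.75 (SD, n = 3). Control roots of Codisco ran from −6.42 to 5.68 between loops. Of the 7 pairs of neighbours in this order, all 7 had overlapping ranges, so the order of neighbours is not resolved by 3 loops. In loops 1 and 3 alone, without the loop of the near-identical pair, control Fergus stayed first at 5.13 and cold Picker was last at −4.46. With the dye labels read literally the order turned, with cold Codisco first at 6.70 and control Fergus last at −10.29.

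Chitinase was highest in control roots of Codisco at 1.97 ± 2.14, then control Fergus at 1.29 ± 1.45, control Picker at 0.33 ± 1.51 and control PR39B29 at 0.30 ± 0.47 (SD, n = 3). The control levels of Codisco were 0.50, 0.99 and 4.43. In replicate 3 that level was tied to its loop only by the direct Codisco array. Cold roots followed, with Codisco at 0.26 ± 1.85, Picker at −0.87 ± 1.88 and PR39B29 at −1.02 ± 1.01. Cold Fergus roots had the lowest mean level, −2.27 ± 1.42, from −0.66, −3.35 and −2.79. The 4 control means thus preceded the 4 cold means, but here too all 7 pairs of neighbours overlapped. In loops 1 and 3 alone this separation was lost, since cold Codisco at 1.04 stood above control PR39B29 at 0.12 and control Picker at −0.41, and cold Picker was lowest at −1.93. With the dye labels read literally, cold PR39B29 was first at 1.79 and control Codisco last at −2.60.

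**Figure D4:**
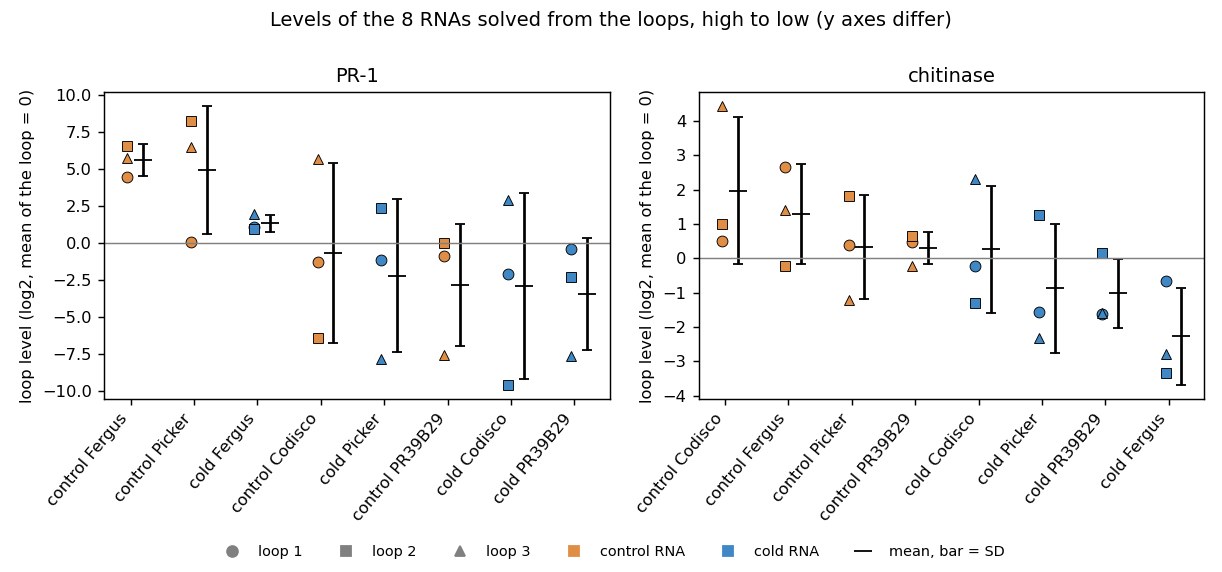
Level of each of the 8 RNAs (log2, centred on 0 in each loop) for PR-1 (left) and chitinase (right), ordered from the highest to the lowest mean; points are the 3 loops, coloured by regime, and the dash and bar give the mean and SD. PR-1 in control Fergus roots lay at 4.48 to 6.61, above cold Fergus roots by a gap that direct arrays alone set in replicates 2 and 3. Chitinase was lowest on average in cold Fergus roots.

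The levels allowed 2 further tests of the varieties, with control and cold roots apart. Among control roots, 0 of 3917 genes passed limma's F test (0% called), 285 had an unadjusted p under 0.05, and the smallest adjusted p was 0.212. PR-1 had F = 3.87 (unadjusted p = 0.0422, adjusted p = 0.663, limma). Its variety levels were 3.84 in Fergus, 3.16 in Picker, −2.44 in Codisco and −4.57 in PR39B29 relative to their mean (SE 2.11 each). The control levels of PR-1 thus ranged over 8.41, which was not past the threshold across genes. In replicates 2 and 3 the control level of Fergus was tied to its loop only by the direct Fergus array. Chitinase had F = 0.93 (adjusted p = 0.736, limma) and a range of 1.67 with an SE of 0.84. Without the near-identical pair the adjusted p was 0.797 for PR-1 and 0.801 for chitinase.

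Among cold roots, 0 of 3917 genes passed (0% called), 610 had an unadjusted p under 0.05, and the smallest adjusted p was 0.167 (limma). PR-1 had F = 0.898 (adjusted p = 0.66, limma) and ranged over 4.76 with an SE of 2.27, highest in Fergus. Chitinase had F = 1.43 (adjusted p = 0.525, limma) and ranged over 2.53 with an SE of 0.87, highest in Codisco and lowest in Fergus. Fergus was therefore at opposite ends of the cold order for the 2 transcripts, within errors that do not separate the varieties. Without the near-identical pair the adjusted p was 0.608 for both.

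PR-1 and chitinase had the same sign on 18 of the 21 arrays where both were measured, and on 11 of 12 direct arrays. Both were chosen on their cold response, so shared signs follow from the choice and nothing is read from them. Over the direct arrays their ratios had a Pearson r of 0.05 and a Spearman rho of 0.29, and r was 0.64 without the 2 arrays farthest from the median of PR-1. Over 9 linking arrays r was 0.78 and rho 0.83, and r was 0.6 without the 2 arrays farthest from the median of PR-1. Without the near-identical pair r was 0.03 over 11 direct and 0.83 over 8 linking arrays, and the signs were shared on 16 of 19. Points of a replicate share RNAs and each pair shares an array, so these are descriptions. PR-1 was further from 0 than chitinase on 5 of the 12 direct arrays.

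**Figure D5:**
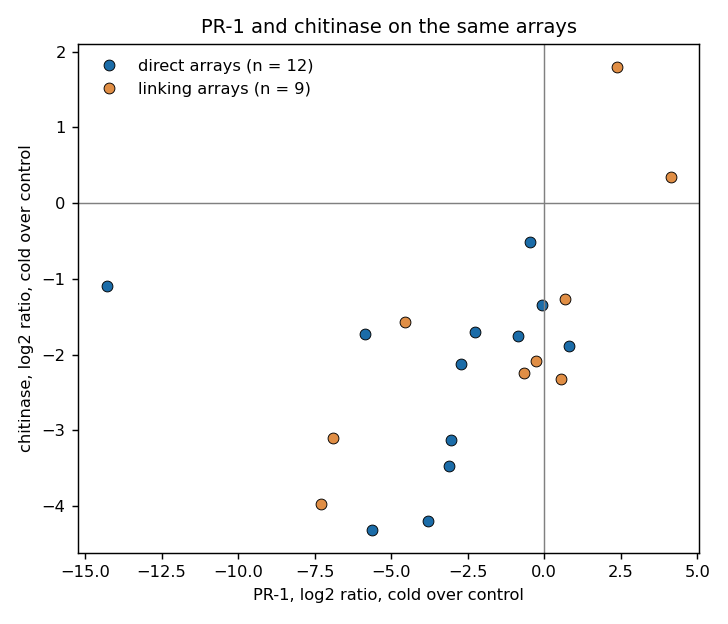
Log2 ratio of cold over control of chitinase (y axis) against PR-1 (x axis) on the 21 arrays with a value for both; blue points are direct arrays and orange points linking arrays. Direct arrays lie below 0 for chitinase throughout, including the Picker array with PR-1 at −14.30, and 2 linking arrays lie above 0 for both.

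The probes whose ratios ran most like those of PR-1, over the 22 arrays with a PR-1 value and 10286 probes measured on all of them, were MZ00017614 (r = 0.783), MZ00056339 (r = 0.768) and MZ00041819 (r = 0.755). Without the 2 arrays farthest from the median of PR-1, r was 0.665, 0.554 and 0.721. For chitinase, over 23 arrays and 9656 probes, they were MZ00028993 (r = 0.83), MZ00042687 (r = 0.806) and MZ00055948 (r = 0.804). Here r without the 2 farthest arrays was 0.804, 0.725 and 0.703. Without the near-identical pair r was 0.773, 0.75 and 0.748 for the first set and 0.787, 0.763 and 0.741 for the second. The files pair none of these 6 probes with a product.

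Other defence-related products were taken from the tables in which the study listed genes called for their cold response on these arrays. A test of that response on the same arrays restates the choice, so the list is described by its values and its test count is no independent evidence. Of its 6 probes, 3 had a value on all direct arrays, and 2 of these were lower and 1 was higher at an adjusted p under 0.05 (limma), beside 24.5% lower and 27.8% higher over all 2546 genes tested. Those genes had passed a variance filter that a steady cold response helps to pass, so the shares are not those of all genes on the array. The median direct mean was −1.34 over the 6 probes and −0.22 over the genes tested.

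Those 3 probes are peroxidases, secreted enzymes that use hydrogen peroxide in lignification and defence. A putative peroxidase (MZ00004711) had a mean of −2.81 ± 2.67 (SD, n = 12) and was below 0 on 10 of 12 arrays, and its mean was −3.08 without the near-identical array. Peroxidase P7X (MZ00026299) had a mean of −1.25 ± 2.00, or −1.66 without that array, and was below 0 on 10 of 12. A further peroxidase (MZ00026737) had a mean of 2.13 ± 2.16, or 1.98 without it, and was above 0 on 10 of 12. The peroxidases thus lay on both sides of 0, while PR-1 and chitinase both had negative direct means.

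Of the other members of the list, a lipid transfer protein (MZ00026029), of a family that binds lipids at the cell wall, had 11 of 11 direct values below 0 and a mean of −1.72 ± 1.26 (SD), or −1.87 without the near-identical array. Both probes of a glucose starvation-induced protein, also named as defence-related, had negative means. They were −1.42 for MZ00037140, with 9 of 11 values below 0, and −1.18 for MZ00040560, with 8 of 10. Without the near-identical array they were −1.59 and −1.35.

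Markers of root and green tissue were named from the same tables, so their direction is likewise part of how they were found. The root-specific protein RCc3 (MZ00015009) had a mean of 3.32 ± 1.85 (SD, n = 12), or 3.39 without the near-identical array, and was above 0 on 12 of 12 direct arrays. Root cap protein 2 (MZ00032161) had a mean of −2.70 ± 2.54, or −2.78 without that array, and was below 0 on 11 of 12. A Rubisco probe (MZ00005992) had a mean of −1.47 ± 1.63, or −1.69 without it, and was below 0 on 10 of 12. Of 24 photosystem probes, found by name, 19 had values, with direct means from −2.74 to 6.98 (median 0.13). The highest of these means rested on 1 direct array and the lowest on 3. Only 2 of the probes entered the test of the mean cold response, and both were lower (limma). They were psbA at −1.79 (adjusted p = 0.00373) and psbM, probe MZ00034854, at −1.69 (adjusted p = 0.00105). Over all 2546 genes tested, which had passed the same variance filter, 24.5% were lower and 27.8% higher. The part of root tissue composition in the PR-1 and chitinase ratios was not tested.

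The mean of PR39B29 was the nearest to 0 of the 4 varieties for PR-1, and also for 7 of these 9 defence and marker probes. Over all 12708 genes it was the nearest for 33.0%. Most of these 9 probes were listed by the study for Picker and not for PR39B29. A PR39B29 mean near 0 is thus partly built into their choice, and nothing is read from the 7 of 9. For chitinase the mean of Picker was the nearest, at −1.53 against −1.65 in PR39B29. One peroxidase, MZ00026737, had its largest mean in PR39B29 at 3.22, with Fergus close to it at 3.14. The direct PR39B29 arrays of replicates 1 and 2 also had small SDs over all genes, 0.591 and 0.753, and 1.59 in replicate 3. Such an SD was not particular to PR39B29, since the direct Codisco array of replicate 1 had 0.608.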

How the data were processed

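The deposited values are log2 ratios of the 2 channels of each spot on a maize oligonucleotide array of 46128 spots. By their methods, the authors corrected the background by the minimum method, normalised within arrays by print-tip loess and scaled between arrays, with CARMAweb, which uses limma. A second deposited table gave probe IDs and names, and its 96 columns of slide values, which match no sample label, were not used. The methods also describe the exclusion of bad spots. Depth is not defined for arrays, and the number of arrays limits the precision.

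Spots of a gene were averaged. Direct ratios had their sign changed and linking ratios were kept. Tests followed the filter of the study, the 40% of genes with the largest variance, which left 16945 of 42364 genes. The variance was taken over the deposited ratios of all arrays, before any sign was changed. A cold response shared by direct and linking arrays therefore adds to it. Differences between varieties were tested by moderated F tests in limma 3.58.1 (R 4.3.3) with Benjamini-Hochberg adjustment over all genes tested, and the threshold was 0.05. The direct test used genes valued on 12 arrays. Loop levels were solved by least squares in loops with at least 7 of 8 arrays, for genes with at least 2 such loops, with the loop as a block. A loop that lacked a linking array was solved from the other 7, which applied to PR-1 in replicates 2 and 3 and to chitinase in replicate 3. The test of the mean cold response, given for the other defence products and the photosystem probes, was added after the data had been seen. The tests of differences between varieties were tried on simulated data, but the test of the mean cold response was not.

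The members and lists were chosen with earlier results of these data known. Named were the 2 members, the 6 defence-related probes with products in tables of the study, reference matches with a defence-related symbol or synonym (0 found), the tissue markers, and for each member the 3 probes with the highest Pearson correlation. Alternatives were another array scale, no variance filter, the dye labels read literally, leaving out replicates or near-identical arrays, the replicate block, and complete loops only. Leaving out the 2 arrays with the most extreme PR-1 values, and the linking array of the near-identical pair alone, was chosen after seeing the data, as were the list values, correlations, levels and places given without that pair or with the dye labels read literally.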

Additional observations from a re-analysis of the deposited data

How the results depend on the processing

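Read by the dye labels, with neither kind of array turned, the direct means became 3.45 for PR-1 and 2.27 for chitinase, with linking means unchanged. Leaving out each replicate gave direct means of −4.72 to −2.56 for PR-1 and −2.50 to −2.01 for chitinase, and linking means of −3.49 to −1.01 and −1.67 to −0.64. Without the direct Picker array of replicate 3, PR-1 averaged −2.46, and without the linking array of PR39B29 cold and Codisco control roots of replicate 3 its linking mean was −1.32. No variety difference of PR-1 or chitinase passed 0.05 in any setting run. Adjusted p over 10 settings ran from 0.172 to 0.999 for the PR-1 response, 0.173 to 0.999 for the chitinase response, 0.368 to 0.984 and 0.39 to 0.987 for control levels, and 0.312 to 0.734 and 0.369 to 0.706 for cold levels, PR-1 first. Among these settings, the literal dye reading changes the sign of all direct arrays together, so it could not alter the tests of the response. Counts of genes that varied between varieties, 0 as reported, became 6 for cold levels with arrays centred and scaled, and 4 for control and 2 for cold levels with the dye labels read literally. With complete loops only, 1 gene passed for cold levels, and neither transcript could be tested, as each lacked a linking value. The cause was not tested.

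Deviations of direct arrays from their variety mean correlated from −0.417 to 0.494 for same replicate numbers (median 0.266, 18 pairs). For different numbers they correlated from −0.57 to 0.507 (median −0.153, 36 pairs). Deviations within a variety sum to 0, so the 2 sets are not independent. Whether the numbers pair the direct arrays is not settled by these values. With the number as a replicate block, 0 genes differed in cold response, with an adjusted p of 0.303 for PR-1 and 0.303 for chitinase (limma). Without the loop as a block, 1 gene passed for control and 2 for cold levels, neither of them PR-1 or chitinase, whose adjusted p was 0.368 and 0.631 for control and 0.58 and 0.411 for cold levels.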
